A study of Mus musculus and Rattus norvegicus with 14 samples.

Results

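Thrombospondins and COMP are the family of calcium-binding matrix glycoproteins encoded in the mouse by Thbs1, Thbs2, Thbs3, Thbs4 and Comp, and those 5 genes were taken by gene name from the deposited tables of 54532 mouse and 33600 rat genes. The family was selected on its levels in Model and Sham hearts, which were already known, so that contrast is described here without a test. The mouse hearts formed 4 groups of 3 libraries, labelled LQ-40, SQ-3, Model and Sham. LQ-40 and SQ-3 are compounds known here by code name, and the study asked how each acts on fibrosis of the heart. The sources used here do not give strain, age, dose, treatment time or the procedure behind Model, nor state whether hearts given LQ-40 or SQ-3 had been through that procedure. Since no label ties the libraries of a group to different animals, a p-value here measures the spread between samples, which may be technical. The rat cultures, with 1 library of each, were a 3D co-culture and 2D cells, both labelled as primary cells of 3 types (cardiomyocytes, macrophages from bone marrow and fibroblasts of the heart), and the series text calls the 3D culture 3D-OGD-MF.

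Thrombospondins are secreted proteins that bridge the matrix and the cell surface. Thbs1 and Thbs2 products assemble as trimers, bind CD36, CD47, integrins and proteoglycans and are known inhibitors of vessel growth, and the Thbs1 product can also release active TGF-beta from its latent form. Thbs3, Thbs4 and Comp products assemble as pentamers. In the mouse heart Thbs4 is known as an injury-induced gene whose product acts partly inside the endoplasmic reticulum through ATF6, and Thbs3 is known to lower integrins at the cardiomyocyte membrane. Comp is best known from cartilage and tendon, where its product binds collagen fibres and helps their assembly.

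The mouse members lie on separate chromosomes, and their deposited coordinates (mm10) and exon lengths equal those of GENCODE vM21 on GRCm38. Thbs1 lies at chr2:118111876-118127133 (plus strand), Thbs2 at chr17:14665500-14694235 (minus), Thbs3 at chr3:89215180-89226837 (plus), Thbs4 at chr13:92751590-92794818 (minus) and Comp at chr8:70373558-70382066 (plus). Because the members are described by how they move together across libraries, their promoter sequences are shown for the 3 that matched the RefSeq promoter table (GRCm38.p6): Thbs2, Thbs3 and Thbs4. Each is the 250 bases before the RefSeq start, 5′ to 3′ on the strand of the gene, and capitals mark matches on either strand to the TATA box TATAAA, the AP-1 motif TGANTCA, the TEAD motif GGAATG, the SMAD motif CAGACA or the RUNX motif TGTGGT.
Thbs2 promoter, chr17:14694263-14694512, minus strand: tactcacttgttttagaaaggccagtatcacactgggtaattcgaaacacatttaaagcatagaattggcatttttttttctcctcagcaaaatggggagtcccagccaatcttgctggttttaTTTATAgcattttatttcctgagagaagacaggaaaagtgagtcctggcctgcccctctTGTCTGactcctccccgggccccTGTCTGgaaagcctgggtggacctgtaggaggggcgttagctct
Thbs3 promoter, chr3:89214930-89215179, plus strand: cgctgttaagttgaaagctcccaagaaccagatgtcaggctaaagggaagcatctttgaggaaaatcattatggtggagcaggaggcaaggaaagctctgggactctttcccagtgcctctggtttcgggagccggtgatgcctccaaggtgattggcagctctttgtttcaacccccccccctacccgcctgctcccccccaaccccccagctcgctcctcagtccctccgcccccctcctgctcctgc
Thbs4 promoter, chr13:92794819-92795068, minus strand: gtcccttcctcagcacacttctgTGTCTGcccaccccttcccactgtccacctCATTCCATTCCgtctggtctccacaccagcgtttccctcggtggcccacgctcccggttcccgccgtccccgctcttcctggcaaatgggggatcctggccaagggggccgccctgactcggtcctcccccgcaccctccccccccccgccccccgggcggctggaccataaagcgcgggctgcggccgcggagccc
The Thbs2 promoter held 1 TATA match, beginning 126 bases before the start, and 2 SMAD matches, beginning 67 and 44 bases before it. The Thbs4 promoter held 2 TEAD matches that overlap by 1 base, beginning 197 and 192 bases before the start, and 1 SMAD match beginning 227 bases before it. The Thbs3 promoter held no match to the 5 motifs. No single motif was present in all 3 windows. GC content was 46.8% in the Thbs2 window, 58.8% in Thbs3 and 70.8% in Thbs4. Over all 32851 promoters of the same length, 12.4% held a TATA match, 6.75% AP-1, 12.6% TEAD, 17.1% SMAD and 14.0% RUNX. A match is a run of letters and not a shown binding site.

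Levels are given as scaled FPKM, which is reads per length of gene and library size as the authors deposited it, divided by a median-of-ratios factor per library, and all 5 members passed the low-level filter (at least 1 FPKM in at least 3 of 12 mouse libraries) with 13000 genes tested. The libraries held 13085370 to 16698987 reads. The hearts expressed the cardiomyocyte markers Myh6, Tnnt2, Actc1 and Tnni3 at a summed 5560 to 11017 scaled FPKM in LQ-40, 8319 to 11094 in SQ-3, 6936 to 8204 in Model and 13160 to 15065 in Sham hearts. 1 library, LQ-40 1, stood apart from its group: on the first principal component of all tested genes (53.4% of the variance) LQ-40 1 lay at -20.6, LQ-40 2 at 16.0 and LQ-40 3 at 34.3, SQ-3 at 0.231 to 17.7, Model at 26.3 to 36.2 and Sham at -52.5 to -43.7. The mitochondrial genome took 21.2% of reads in LQ-40 1, 15.5 and 11.1% in LQ-40 2 and 3, 15.2 to 20.1% in SQ-3, 10.8 to 15.3% in Model and 14.6 to 23.6% in Sham hearts. Its part in the results was not tested, and the members' differences, their correlations and the partner calls of LQ-40 hearts are given with and without LQ-40 1 below.

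The sum of the 5 members was 37.8, 270.5 and 329.6 scaled FPKM in the LQ-40 libraries, 162.1, 428.7 and 186.0 in SQ-3, 513.2, 252.5 and 470.9 in Model and 22.6, 20.3 and 17.3 in Sham. All Model libraries and all SQ-3 libraries lay above every Sham library, and LQ-40 1 was nearer to Sham than to the other LQ-40 libraries. Each of the 5 members was higher in all Model libraries than in any Sham library; over all tested genes 29.8% were likewise higher without overlap and 20.9% were called higher (limma adjusted p under 0.05), and nothing is read from the members' count. Their median log2 difference between Model and Sham was 4.49, beside 0.03 over all genes tested, with Comp, Thbs4 and Thbs1 far above Thbs3 and Thbs2. In bulk tissue, more cells of a type that carries a transcript and more transcript per cell cannot be told apart.

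**Figure D1:**
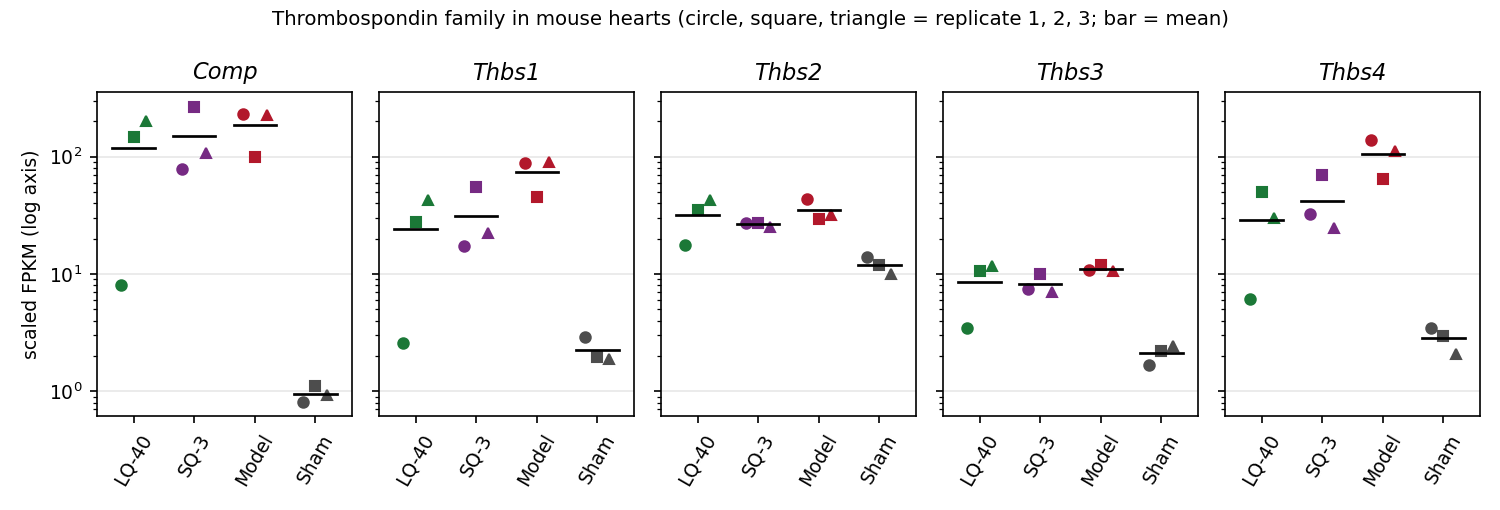
Scaled FPKM (log axis) of each member in the LQ-40, SQ-3, Model and Sham hearts, 1 point per library with the group mean as a bar. All 5 genes have their lowest mean in Sham, where Comp lies between 0.814 and 1.10, and LQ-40 1 is the lowest point of its group for each gene.

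Comp showed the widest range of the family. It was at 8.09, 146.2 and 203.4 scaled FPKM in LQ-40 hearts 1, 2 and 3, 78.0, 266.9 and 107.1 in SQ-3 hearts, 230.7, 100.4 and 227.6 in Model hearts and 0.814, 1.10 and 0.925 in Sham hearts. No Sham library reached any library of another group, while Model, SQ-3 and LQ-40 overlapped. In reads these are 311, 6888 and 9707 in LQ-40, 3690, 13872 and 4031 in SQ-3, 11776, 4450 and 11527 in Model and 31, 44 and 35 in Sham, so the Sham level is that of a gene near the limit of the filter. By FPKM Comp ranked 4663, 250 and 172 among all 54532 genes in LQ-40, 477, 141 and 381 in SQ-3, 128, 388 and 136 in Model and 12455, 11482 and 11954 in Sham hearts. The mean was 186.2 ± 74.4 in Model against 0.947 ± 0.145 in Sham hearts (SD, n = 3 each), a difference of 6.49 on the log2(scaled FPKM + 1) scale, on which all changes below are given and which understates changes of low genes.

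Thbs4 followed with the next largest Model to Sham difference. It was at 6.10, 50.4 and 29.8 scaled FPKM in LQ-40 hearts, 32.5, 69.5 and 24.5 in SQ-3 hearts, 139.6, 65.0 and 111.9 in Model hearts and 3.43, 2.98 and 2.07 in Sham hearts. All LQ-40 libraries were below all Model libraries, with 50.4 the highest LQ-40 value and 65.0 the lowest Model value, and SQ-3 overlapped Model only through SQ-3 2. Means were 28.8 ± 22.2 in LQ-40, 42.2 ± 24.0 in SQ-3, 105.5 ± 37.7 in Model, and 2.83 ± 0.692 in Sham (SD, n = 3 each), and Model differed from Sham by a log2 of 4.75.

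Thbs1, the trimer-forming member linked to TGF-beta release, was at 2.59, 27.99 and 42.5 scaled FPKM in LQ-40 hearts, 17.2, 55.1 and 22.2 in SQ-3 hearts, 88.3, 45.7 and 89.3 in Model hearts and 2.90, 1.94 and 1.87 in Sham hearts. LQ-40 1 lay inside the Sham range, and the highest LQ-40 library stayed under the lowest Model library by a small margin. Means were 24.4 ± 20.2 in LQ-40, 31.5 ± 20.6 in SQ-3, 74.4 ± 24.9 in Model, and 2.24 ± 0.573 in Sham (SD, n = 3 each). The Model to Sham difference was a log2 of 4.49. A noncoding gene annotated across Thbs1 on the other strand, Gm29233, was listed at 0 in every mouse library.

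Thbs2, the other trimer-forming inhibitor of vessel growth, had the highest Sham level of the family and the smallest difference. It was at 17.6, 35.2 and 42.4 scaled FPKM in LQ-40 hearts, 27.1, 27.3 and 25.2 in SQ-3 hearts, 43.7, 29.7 and 31.7 in Model hearts and 13.8, 12.02 and 10.03 in Sham hearts. SQ-3 libraries were close to each other, at 26.5 ± 1.14 (SD, n = 3), and all below the Model libraries at 35.03 ± 7.61, while LQ-40 at 31.7 ± 12.8 overlapped both. Sham averaged 11.96 ± 1.89, and the Model to Sham difference was a log2 of 1.47.

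Thbs3 was the lowest member in every Model, SQ-3 and LQ-40 library except LQ-40 1, where Thbs1 was lower. It was at 3.49, 10.7 and 11.6 scaled FPKM in LQ-40 hearts, 7.37, 10 and 7.03 in SQ-3 hearts, 10.8, 11.8 and 10.49 in Model hearts and 1.68, 2.22 and 2.41 in Sham hearts. Model libraries were the tightest, at 11.05 ± 0.680, with SQ-3 at 8.13 ± 1.63, LQ-40 at 8.58 ± 4.43 and Sham at 2.10 ± 0.377 (SD, n = 3 each), and Model differed from Sham by a log2 of 1.96. The whole span of Thbs3 lies within GENCODE's annotation of Mtx1 on the other strand. Since no source used here gives the strand setting of the counting, Thbs3 values are uncertain. Mtx1, a mitochondrial outer membrane import gene, was at 2.63 ± 0.219 scaled FPKM in LQ-40, 2.52 ± 0.495 in SQ-3, 3.04 ± 0.343 in Model, and 2.60 ± 0.162 in Sham (SD, n = 3 each).

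In the order of group means, Comp, Thbs1 and Thbs4 ran Model, SQ-3, LQ-40, Sham, and Thbs2 and Thbs3 ran Model, LQ-40, SQ-3, Sham. Between neighbours in these orders, libraries of SQ-3 and LQ-40 overlapped for all 5 genes, and Model overlapped the next group for all 5 as well. The step to Sham was free of overlap for every gene except Thbs1, through LQ-40 1.

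The make-up of the family differed between groups as the levels did. Thbs2 made up 46.4, 13.0 and 12.9% of the summed scaled FPKM in LQ-40 hearts, 16.7, 6.36 and 13.5% in SQ-3, 8.52, 11.7 and 6.73% in Model and 61.0, 59.3 and 58.0% in Sham hearts. It was the largest member in every Sham library and in LQ-40 1. Comp made up 21.4, 54.1 and 61.7% in LQ-40, 48.1, 62.2 and 57.6% in SQ-3, 44.96, 39.7 and 48.3% in Model and 3.59, 5.43 and 5.34% in Sham hearts, and was the largest member in the remaining libraries. The share of Thbs4 was 16.1, 18.6 and 9.05% in LQ-40, 20.0, 16.2 and 13.2% in SQ-3, 27.2, 25.7 and 23.8% in Model and 15.2, 14.7 and 11.98% in Sham hearts, so each Model library had a larger Thbs4 share than any other library. The share of Thbs1 was likewise largest in Model, at 6.85 to 12.9% in LQ-40, 10.6 to 12.8% in SQ-3, 17.2 to 18.95% in Model and 9.59 to 12.8% in Sham hearts.

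**Figure D2:**
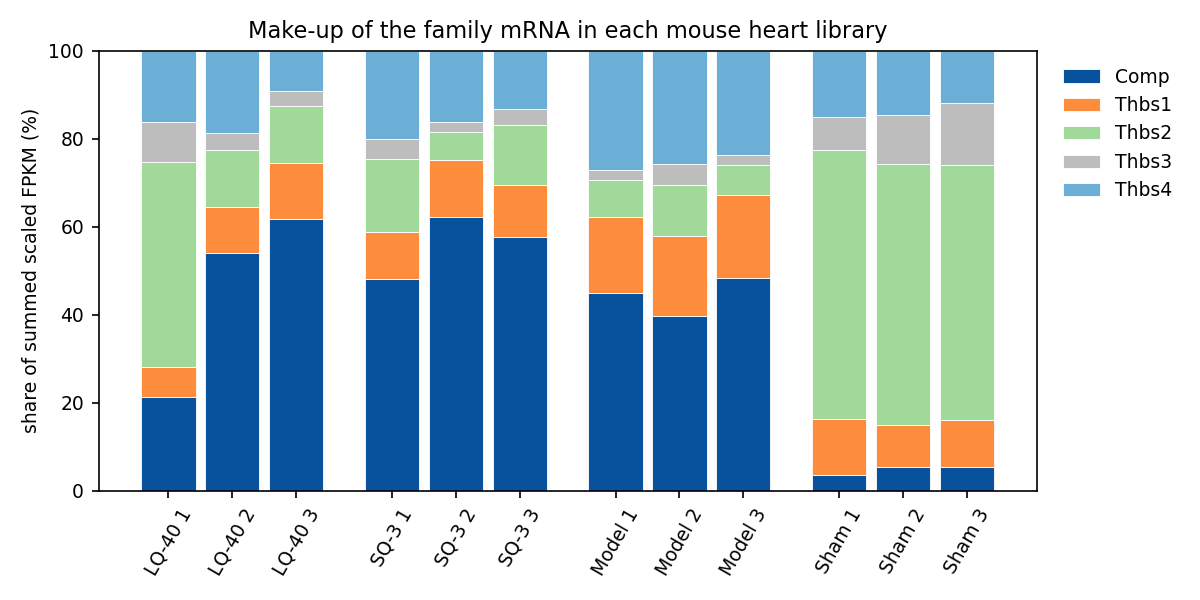
Share of the summed scaled FPKM of the 5 members (percent) in each mouse library, LQ-40 to Sham from left to right. Thbs2 makes up 58.0 to 61.0% in Sham and 46.4% in LQ-40 1, and Comp is the largest part in the other libraries.

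The ratio of Comp to Thbs4, chosen after their values were seen and given without a test, was 1.33, 2.90 and 6.81 in LQ-40 hearts, 2.40, 3.84 and 4.37 in SQ-3, 1.65, 1.54 and 2.03 in Model and 0.237, 0.370 and 0.446 in Sham hearts. Every SQ-3 library and the other two LQ-40 libraries were above the Model range, LQ-40 1 was below it, and Sham was lowest.

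The compounds were first set against Model hearts, whose libraries are also part of the contrast that drew attention to these genes. Choosing genes on their levels in those libraries, where all 5 were high, favours lower values in any group set against them. Member differences from Model, with their p-values, are therefore descriptions. In LQ-40 hearts none of the 5 members passed the test against Model, where 0.485% of all tested genes were called lower (63 of 13000, limma adjusted p under 0.05). Thbs1 and Thbs4 had an unadjusted p under 0.05, from which nothing is read, and voom on recovered reads called none of the 5 either. Thbs4 differed by -2.18 (95% interval -3.56 to -0.80, unadjusted p = 0.00531, limma adjusted p = 0.175), and Thbs1 by -2.13 (-3.83 to -0.42, unadjusted p = 0.0189, adjusted p = 0.293). Both were lower in all LQ-40 libraries than in any Model library, as were 10.8% of all tested genes. Comp differed by -1.43 (-3.54 to 0.68, adjusted p = 0.593), Thbs3 by -0.47 (-1.17 to 0.23, adjusted p = 0.599) and Thbs2 by -0.21 (-0.80 to 0.39, adjusted p = 0.795). Without LQ-40 1 the differences were -0.014 for Comp, -1.02 for Thbs1, 0.16 for Thbs2, 0.010 for Thbs3 and -1.35 for Thbs4, with adjusted p of 0.324 to 0.998.

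In SQ-3 hearts, where member differences from Model are likewise descriptions, none of the 5 passed by limma or by voom on recovered reads. None had an unadjusted p under 0.05, and 0.269% of tested genes were called lower. Thbs4 differed by -1.37 (95% interval -2.76 to 0.01, unadjusted p = 0.0513, limma adjusted p = 0.354) and Thbs1 by -1.33 (-3.03 to 0.37, adjusted p = 0.430). Thbs3 differed by -0.41 (-1.11 to 0.29, adjusted p = 0.540), Comp by -0.41 (-2.52 to 1.70, adjusted p = 0.858) and Thbs2 by -0.37 (-0.97 to 0.23, adjusted p = 0.519). Thbs2 and Thbs3 were lower in all SQ-3 libraries than in any Model library, as were 14.3% of all tested genes.

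LQ-40 and SQ-3 hearts were also compared with each other, a comparison that uses none of the Model or Sham libraries, and for which the sources used here give no dose. None of the 5 members passed (1 pair of compounds, limma adjusted p = 1.00 for each), none had an unadjusted p under 0.05, and voom called none; limma and voom each called 0 of 13000 genes (percent called 0), with 394 at an unadjusted limma p under 0.05. All 5 members overlapped between the compounds. LQ-40 minus SQ-3 was -1.02 for Comp (95% interval -3.13 to 1.09), -0.80 for Thbs1 (-2.50 to 0.91) and -0.81 for Thbs4 (-2.19 to 0.58). It was 0.16 for Thbs2 (-0.43 to 0.76) and -0.05 for Thbs3 (-0.75 to 0.64). Intervals this wide for Comp, Thbs1 and Thbs4 do not show that the compounds act alike. Without LQ-40 1 the signs of 4 differences turned, to 0.40 for Comp, 0.31 for Thbs1, 0.42 for Thbs3 and 0.023 for Thbs4, and Thbs2 was at 0.53.

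Against Sham hearts, the values are a description: the Sham libraries are part of the contrast that chose the family, and Comp, at 0.814 to 1.10 scaled FPKM in Sham, passed the filter through the other groups. In LQ-40 hearts Comp differed from Sham by 5.06 (95% interval 2.95 to 7.17), Thbs4 by 2.57 (1.18 to 3.95), Thbs1 by 2.37 (0.67 to 4.07), Thbs3 by 1.496 (0.80 to 2.20) and Thbs2 by 1.26 (0.66 to 1.86). All but Thbs1 were higher in LQ-40 without overlap, beside 19.2% of tested genes, and 4 of 5 were past the threshold (limma adjusted p under 0.05), beside 9.83% of all tested genes called higher; nothing is read from these counts. They moved with single libraries: 5 were past it without LQ-40 1, where Thbs1 differed by 3.47 and Comp by 6.48, but 0 without LQ-40 2, 1 without LQ-40 3, and 2 without Sham 1 and 2 without Sham 2. Fitted on LQ-40 and Sham libraries alone, 0 of 5 were past it. Calls over all tested genes moved as well. They numbered 2049 with all libraries, 408 to 4372 with each LQ-40 or Sham library left out, and 230 in the fit of these groups alone.

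In SQ-3 hearts Comp differed from Sham by 6.08 (95% interval 3.97 to 8.19), Thbs4 by 3.37 (1.99 to 4.76), Thbs1 by 3.16 (1.46 to 4.86), Thbs3 by 1.55 (0.85 to 2.25) and Thbs2 by 1.10 (0.50 to 1.69). All 5 were higher in SQ-3 without overlap, beside 20.2% of all genes, and all 5 were past the threshold, beside 4.86% of all tested genes called higher by limma, from which again nothing is read. Leaving out 1 library left 1 to 3 of the 5 past it: 1 without Sham 2 or without SQ-3 2, 2 without Sham 1, SQ-3 1 or SQ-3 3, and 3 without Sham 3. With no filter on low genes 2 of 5 were past it. Over all tested genes 868 were called with all libraries and 227 to 444 with each SQ-3 or Sham library left out.

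**Figure D3:**
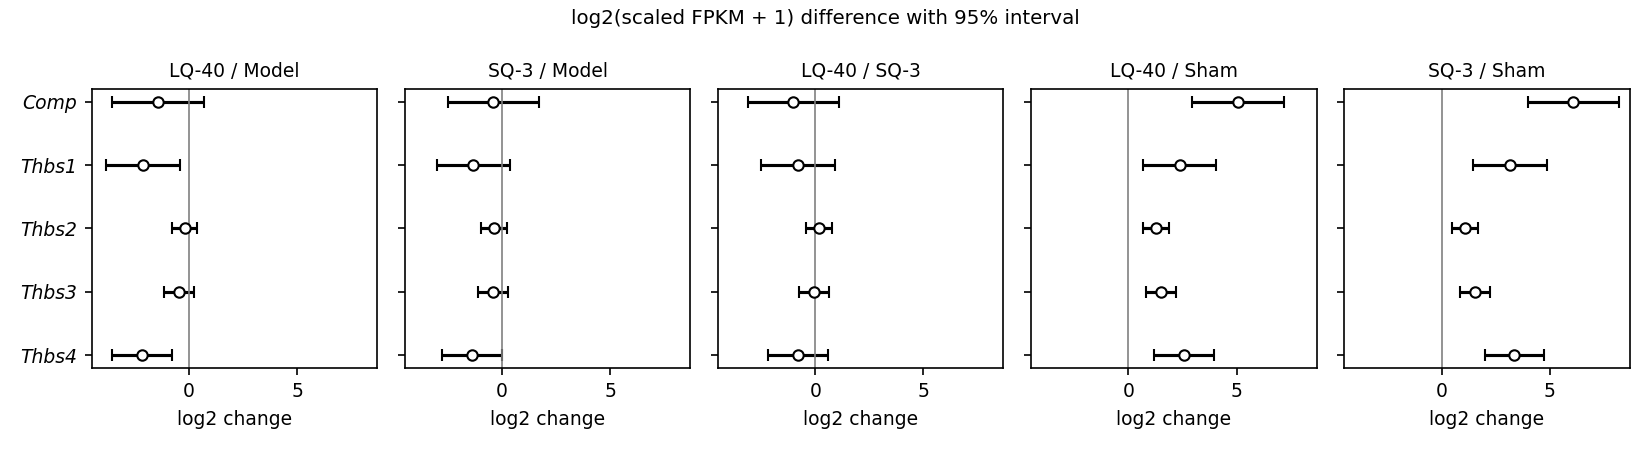
Differences of log2(scaled FPKM + 1) with 95% intervals for each member in the 5 comparisons that involve a compound. Intervals lie above 0 for LQ-40 and SQ-3 against Sham, and for the compounds against each other all 5 cross 0. Differences from Sham and from Model are descriptions.

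Summed markers of fibroblasts, tendon, cartilage and macrophages were higher in each Model library than in any Sham library, as the family was, while mesothelial, platelet, endothelial and smooth muscle sums overlapped. So was the low skeletal muscle sum (0 of 4 markers passing the filter), at 0.670 to 5.22 in Model and 0.104 to 0.300 in Sham hearts. It was 0.183 to 2.76 in LQ-40 and 0.490 to 1.27 in SQ-3 hearts. The summed level of the fibroblast markers Pdgfra, Dcn, Lum and Tcf21 (4 of 4 passing the filter) was 468, 734 and 963 scaled FPKM in LQ-40 hearts, 615, 1037 and 618 in SQ-3, 763, 831 and 838 in Model and 346, 313 and 280.1 in Sham hearts. The tendon markers Scx, Tnmd and Mkx (2 of 3 passing) summed to 1.83, 7.05 and 6.99 in LQ-40, 6.96, 13.5 and 7.18 in SQ-3, 16.3, 10.2 and 12.1 in Model and 2.08, 1.68 and 2.68 in Sham hearts, with Tnmd, a tendon membrane protein, at 0 in every Sham library. Mkx, under the filter, overlapped, at 0.0592, 0.119 and 0.149 in Model and 0.0595, 0.0568 and 0.0999 in Sham hearts. In these groups most of the tendon sum was Scx, at 12.6, 6.97 and 10.3 in Model and 2.02, 1.63 and 2.58 in Sham hearts. The cartilage markers Sox9, Acan, Col2a1, Col9a1 and Cnmd (2 of 5 passing) summed to 2.62 to 11.7 in LQ-40, 5.13 to 6.66 in SQ-3, 6.35 to 8.50 in Model and 1.12 to 1.59 in Sham hearts, where Col2a1 and Col9a1 were at 0. Most of the Model sum was Sox9, at 6.96, 4.34 and 4.38 in Model and 0.603, 0.629 and 1.02 in Sham hearts. Acan, Col2a1 and Col9a1, under the filter, were at 0.646 to 1.58, 0.167 to 0.298 and 0.0462 to 0.126 in Model hearts. Within SQ-3 the cartilage sum was lowest in SQ-3 2 (5.13), the library with the highest Comp, and Cnmd, a cartilage membrane protein, was at 0.473 to 0.908 in Model and 0.0851 to 0.972 in Sham hearts. The macrophage markers (4 of 4 passing) summed to 185.7, 259.5 and 325.2 in LQ-40, 157.2, 201.0 and 221.9 in SQ-3, 258.1, 239.3 and 207.3 in Model and 156.3, 106.1 and 155.4 in Sham hearts. The mesothelial markers (3 of 3 passing) summed to 14.0 to 62.8 in LQ-40, 14.8 to 31.9 in SQ-3, 11.5 to 49.5 in Model and 1.88 to 13.2 in Sham hearts. Thbs1 is also a platelet product, and the 5 platelet markers (2 of 5 passing) summed to 15.0 to 25.6 in LQ-40, 10.9 to 26.5 in SQ-3, 13.8 to 31.4 in Model and 18.2 to 19.2 in Sham hearts, overlapping in all 4 groups. The endothelial markers (4 of 4 passing) summed to 178 to 252 in LQ-40, 182 to 226 in SQ-3, 175 to 201 in Model and 192 to 264 in Sham hearts. The smooth muscle markers (2 of 3 passing) summed to 17.9 to 19.5 in LQ-40, 13.8 to 20.1 in SQ-3, 15.6 to 25.6 in Model and 12.5 to 18.9 in Sham hearts. The part of these cell types in the family's levels was not tested.

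Across the 12 libraries the members varied together, as did many other genes: 4.50 to 6.55% of the other 12999 tested genes had an r of at least 0.9 with a given member. Pearson's r of log2(scaled FPKM + 1) between members was 0.914 to 0.978 over the 12 libraries, which includes the group differences. With group means removed it was highest between Comp and Thbs1 (0.986) and lowest between Thbs2 and Thbs3 (0.751). After that removal, 0.285% (Thbs2) to 2.38% (Comp) of the other tested genes had an r of at least 0.9 with a given member. Without LQ-40 1, an alternative chosen after seeing the data, r between members was 0.912 to 0.981 over 11 libraries, but with group means removed it was -0.23 to 0.948, with Comp and Thbs1 highest and Thbs2 and Thbs3 lowest, so much of the likeness within groups rested on that library. These are descriptions across libraries that share depth, cell make-up and, after removal, the wide LQ-40 group. The genes most like each member over the libraries were Dkk3, Mfap5 and Pi16 for Comp (0.990 each), Cilp2, Tgfb3 and B4galnt3 for Thbs4 (0.981 to 0.990) and Col5a2, Serpinf1 and Tmem43 for Thbs3 (0.989 to 0.991). For Thbs1 they were Yipf5, Loxl3 and Pmepa1 (0.987 to 0.989) and for Thbs2 P2rx4, Sgpl1 and Ms4a7 (0.973 to 0.977). After group means were removed they were Tgfb3, Cx3cl1 and Ddah1 for Comp, Adamtsl3, Ddah1 and Havcr2 for Thbs1, Fam180a, Cadm1 and Plpp1 for Thbs4, Myof, Maged1 and Sfrp2 for Thbs3 and Zfp451, H13 and Tpbg for Thbs2, at an r of 0.9501 to 0.993. Without LQ-40 1 the 3 genes most like a member after removal changed: 1 of 3 stayed for Thbs1 (Adamtsl3) and 0 of 3 for each of the others.

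The wider pathway was taken as 46 partner genes in 5 lists of receptors, growth factors and signalling partners, matrix partners, proteases that cut the members or their matrix, and the ATF6 arm of the endoplasmic reticulum, of which 41 passed the filter. Between Model and Sham hearts 26 rose and 4 fell (limma adjusted p under 0.05), with a median log2 difference of 0.95 beside 0.03 over all genes. Of all tested genes 38.9% were called in either direction and 20.9% were called higher. The partner lists were drawn up with earlier results of these data known. Their counts of calls, here and below, are therefore no independent test of the lists. Of the 41 tested, Adamts4, Itga4, Itgb3 and Mmp9 reached 1 FPKM in no Sham library and so passed the filter through the other groups. Their differences from Sham are therefore descriptions, though the counts of calls include them where called. Among receptors 8 of 14 rose, Itgb3 and Itga4 among them as descriptions only. The 4 with the smallest p included Itgb3 at 1.42, an integrin chain. The others were the syndecans Sdc4 at 1.74 and Sdc1 at 2.27 and the integrin chain Itgav at 1.22. The integrin chain Itgb1 (216.1 ± 22.9 in Model, 168.5 ± 20.7 in Sham) and Cd47 (20.98 ± 1.23 in Model, 22.1 ± 3.69 in Sham) did not pass. The 3 receptors that fell, named after their values were seen, were Cd36 at -1.05, Vldlr at -0.91 and Cacna2d1 at -0.66; Cd36, a fatty acid carrier and receptor of Thbs1, averaged 274.6 ± 52.3 in Model hearts against 567.5 ± 77.3 in Sham. In the growth factor list 2 of 8 rose, near the share of all tested genes called higher. They were Tgfb1 at 0.95 and Fgf2 at 0.86, and Fgf2 lost its call without Model 1, Model 3, Sham 2 or Sham 3 (limma adjusted p of 0.0507 to 0.0597). All 6 of the tested matrix partners rose, among them Fn1 at 3.80 and Col1a2 at 3.36, while Col2a1, Col9a1, Matn3 and Acan did not pass the filter.

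Of the 6 proteases, 4 were called higher and 1 lower between Model and Sham hearts, where 20.9% of all tested genes were called higher. Mmp2 rose by 2.50, Adamts1 by 1.37 and Adamts12 by 1.25, and Adamts7, named after its value was seen, fell by 0.58. The other one counted as higher was Adamts4, an aggrecanase, whose difference is a description: 2.25 and, with a pseudocount of 0.1, 4.49. In the ATF6 list 6 of 7 rose, with Sdf2l1 at 1.77, Creld2 at 1.72 and Manf at 1.57, and Atf6 itself did not pass (11.2 ± 0.209 in Model, 13.3 ± 1.61 in Sham hearts, SD, n = 3 each).

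**Figure D4:**
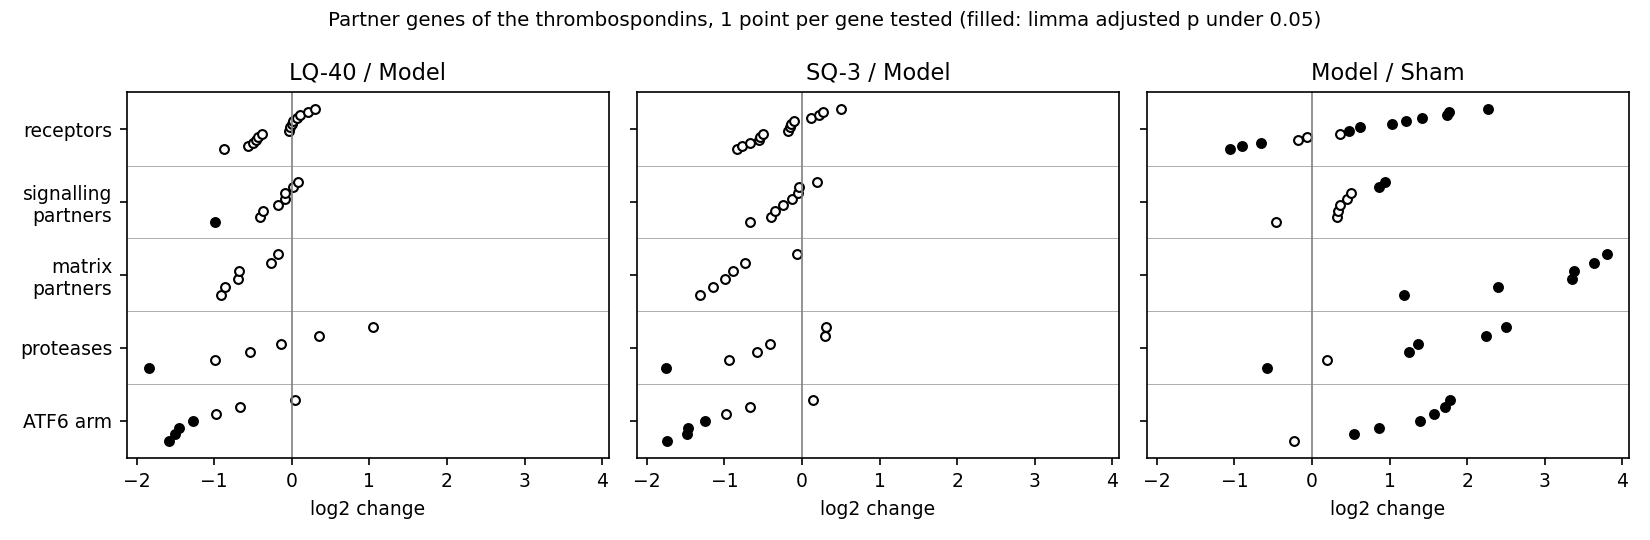
Differences of log2(scaled FPKM + 1) for each tested partner gene in 5 lists, for LQ-40 against Model, SQ-3 against Model and Model against Sham hearts, filled where the limma adjusted p was under 0.05. The ATF6 list holds 4 called genes below 0 for each compound against Model and 6 called genes above 0 for Model against Sham.

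Against Model, 6 partner genes were called lower in LQ-40 hearts and none higher, beside 0.669% of all tested genes called in either direction. The partners' median was -0.39 beside 0.01 over all genes. As the lists were chosen with earlier results known, these calls and their p-values are no independent test of the lists. Adamts4 was at 0.128, 0.170 and 1.32 scaled FPKM in LQ-40 hearts, 0.560, 0.368 and 0.721 in SQ-3, 4.44, 3.95 and 4.24 in Model and 0.0486, 0.0926 and 0.147 in Sham hearts. Both compounds' libraries were all well below Model and above Sham for this gene, apart from LQ-40 1, which lay inside the Sham range. Because Adamts4 was tested only through its Model level (1 FPKM was reached in the 3 Model libraries and LQ-40 3), its difference from Model is given as a description, though the counts of calls include it. It was -1.84 for LQ-40 and -1.75 for SQ-3. With a pseudocount of 0.1 it was -3.28 for LQ-40 and -2.77 for SQ-3, and with voom on recovered reads -3.66 for LQ-40 and -3.01 for SQ-3. The call was lost for LQ-40 in a fit of LQ-40 and Model libraries alone, and for SQ-3 with that pseudocount and without Model 1, Model 3, SQ-3 1 or SQ-3 2. The chaperone gene Hspa5 was at 108.0, 89.8 and 87.5 in LQ-40, 89.5, 102.5 and 98.5 in SQ-3, 236.6, 232.7 and 222.8 in Model and 130.5, 134.9 and 115.9 in Sham hearts, the compounds' libraries being below Sham as well as Model. It fell against Model by 1.28 in LQ-40 (adjusted p = 0.00144) and by 1.25 in SQ-3 hearts (adjusted p = 0.00160). Manf, Creld2 and Sdf2l1, further products of that arm, fell by 1.51, 1.45 and 1.58 in LQ-40 hearts (adjusted p = 0.00662, 0.00662 and 0.0150), and Sdf2l1 lost its call without LQ-40 2, Model 1 or Model 2. Fitted on LQ-40 and Model libraries alone, 1 partner gene was called. Vegfa, the growth factor whose action thrombospondins oppose, fell by 0.99 in LQ-40 hearts (adjusted p = 0.00572) and differed by -0.67 in SQ-3 hearts (adjusted p = 0.0538).

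In SQ-3 hearts 5 partner genes were called lower against Model and none higher, beside 0.346% of all genes called. They were Adamts4, Hspa5, and Manf, Creld2 and Sdf2l1, which fell by 1.49, 1.46 and 1.74 (limma adjusted p = 0.0107, 0.00964 and 0.0135). Partner calls in SQ-3 hearts numbered 1 without Model 1 or SQ-3 1, 2 without SQ-3 3 and 3 without Model 3 or SQ-3 2, and 8 in a fit of SQ-3 and Model libraries alone. Over all tested genes 45 were called with all libraries and 12 to 26 with each SQ-3 or Model library left out. Receptors and matrix partners had none called for either compound against Model, where the matrix medians were -0.69 for LQ-40 and -0.94 for SQ-3. Between LQ-40 and SQ-3 no partner passed by limma. Against Sham, 15 partners were called higher and 3 lower in LQ-40 hearts, beside 9.83% of all tested genes called higher and 5.93% lower. In SQ-3 hearts 13 were called higher and none lower, beside 4.86% higher and 1.82% lower, and all 6 tested matrix partners were called higher in each. The 18 partner calls of LQ-40 became 1 in a fit of LQ-40 and Sham libraries alone, 9 without LQ-40 2 or LQ-40 3, 10 without Sham 1, 12 with no filter and 25 without LQ-40 1. The 13 of SQ-3 became 3 with no filter and 2 to 8 when each SQ-3 or Sham library was left out, with 2 without Sham 2 or SQ-3 2. Calls over all tested genes moved as well, to 408 to 4372 for LQ-40 and 227 to 444 for SQ-3 with each library left out. The 3 partners that fell in LQ-40 hearts against Sham, named after their values were seen, were Vldlr by 0.80 (limma adjusted p = 0.0406), Vegfa by 0.66 (adjusted p = 0.0115) and Hspa5 by 0.42 (adjusted p = 0.0479). Without LQ-40 1, looked at after seeing the data, they differed by -1.07, -0.74 and -0.51 (limma adjusted p = 0.00238, 0.00274 and 0.0103).

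The rat cultures gave another order of the family. The libraries held 11910160 reads in the 3D co-culture and 13262387 in the 2D cells, with 13405 genes compared. With 1 library each there is no replicate check and no test. Culture form and any other condition that the name 3D-OGD-MF stands for cannot be told apart in the differences below. Thbs1 had 65643 reads in the 3D co-culture and 49438 in the 2D cells, or 1539.9 and 998.7 scaled FPKM, ranking 20 and 39 of all genes. Its share of the family was 98.2% in 3D and 96.5% in 2D. The 3D to 2D ratio of scaled reads was 1.54 (exact 95% binomial interval 1.52 to 1.56, which covers counting error only, as do the intervals that follow).

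Thbs2 had 1480 reads in the 3D co-culture and 2299 in the 2D cells (21.6 and 28.9 scaled FPKM, ratio 0.748, interval 0.700 to 0.798). Thbs3 had 201 and 318 reads (5.47 in 3D and 7.45 in 2D, ratio 0.734, interval 0.612 to 0.879). Comp, with 16 reads in 3D and 7 in 2D, was at 0.488 and 0.184 scaled FPKM, under the filter, with a ratio of 2.65 (1.03 to 7.63). Thbs4 had 1 read in 3D and 0 in 2D, both under the floor of 3 reads, which stands for 0.0799 scaled FPKM in 3D and 0.0688 in 2D. Of the 3 members that passed the filter, 0 were past 2-fold on the log2(scaled FPKM + 1) scale, on which they changed by 0.62 (Thbs1), -0.40 (Thbs2) and -0.39 (Thbs3), beside 7.47% of all genes compared.

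**Figure D5:**
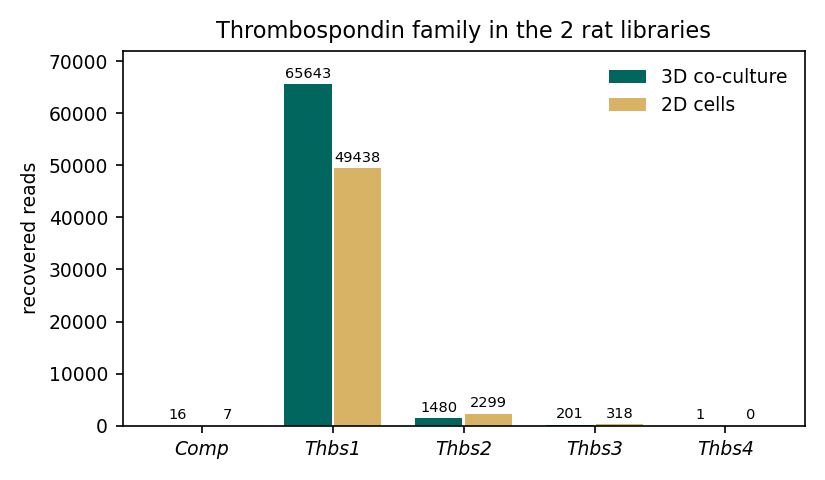
Recovered reads of each member in the rat 3D co-culture and 2D cells, with no replicates. Thbs1 holds nearly all reads of the family, 65643 in 3D and 49438 in 2D, and Thbs4 holds 1 and 0.

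The rat partner genes past 2-fold were each higher in the 3D co-culture, beside 7.47% of all genes compared past it in either direction. They were 1 of 13 receptors, the integrin chain Itgb3 (4.66 scaled FPKM in 3D, 1.57 in 2D), and 1 of 7 growth factors and signalling partners, Vegfa (96.6 and 43.4). The others were 1 of 6 matrix partners, the proteoglycan gene Dcn (254.1 and 76.7), and 1 of 6 proteases, Mmp9 (10.48 and 1.08). Of the ATF6 genes, 0 of 7 was past 2-fold. The defining markers did not match all labelled cell types. The cardiomyocyte markers summed to 8.95 scaled FPKM in 3D and 9.53 in 2D, with Myh6 at 1.58 and 1.95, and the macrophage markers to 9.08 and 8.63, with C1qa at 0.0818 and 0.0705. The fibroblast markers summed to 281.9 in 3D and 97.7 in 2D, most of it Dcn, while Tcf21 went the other way at 5.82 in 3D and 13.1 in 2D. The smooth muscle markers summed to 355.0 in 3D and 413.7 in 2D, most of it Tagln (340.3 and 398.8). Cnn1 was at 8.57 in 3D and 11.3 in 2D, while Myh11 went the other way (6.11 and 3.62). Msln, a mesothelial gene, was at 150.3 in 3D and 160.3 in 2D. The mesothelial markers Upk3b (2.02 and 0.994) and Wt1 (1.90 and 1.15) were low and higher in 3D. Myod1, a skeletal muscle factor, was at 26.4 in 3D and 39.6 in 2D, with Myh1 at 2.79 and 4.48 and Tnnt3 at 0.612 and 1.65. The part of these in the rat levels was not tested.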

How the data were processed

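Messenger RNA was sequenced in 12 mouse heart libraries and 2 rat culture libraries, grouped by sample title or description. Tools named in the submitters' processing notes are featureCounts 1.5.0-p3, HISAT2 2.0.5 and fastp, with no roles, and the builds are Rnor_6.0 and mm10. Per the labels' protocols a NEB and a dUTP library are both possible, and no source used here gives the strand setting or annotation release. The authors deposited FPKM with gene lengths and coordinates. FPKM times length gave whole multiples of a single read for 100.0% of values in every library (tolerance 0.02 of a read), which recovers 13085370 to 16698987 mouse and 11910160 to 13262387 rat reads. In the mouse, 0.0566 to 0.0805 FPKM stood for 1 read at 1 kilobase.

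FPKM were divided by median-of-ratios factors over the 10422 mouse genes (12109 in the rat) that no library holds below 1 FPKM. The 13000 mouse genes that reached 1 FPKM in 3 or more of the 12 libraries were tested on the log2(scaled FPKM + 1) scale in R 4.3.3 by limma 3.58.1 (eBayes with trend, all 12 libraries fitted together, two-sided, adjusted by Benjamini-Hochberg over these genes, threshold 0.05). Python 3.11.15 was used for the rest, and the fit was tested on simulated data. Every adjusted p is from limma unless voom is named. In the rat, 13405 genes reached 1 FPKM in 1 or both libraries and were set side by side without a test.

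The members, partner lists, markers and motifs were chosen with earlier results of these data known. Up to 4 called partner genes per list were named by smallest p and up to 2 uncalled ones by largest mean, and not every gene that rule admits is printed. Alternatives were FPKM as deposited, a pseudocount of 0.1, no filter, a fit of the compared groups alone, limma-voom on recovered reads, a replicate block and leaving out each library. Correlations and 3 partner genes without LQ-40 1 were added after seeing the data. Same-numbered libraries of different groups did not deviate together (r of deviations from group means -0.27 to 0.22), so replicate numbers were not taken as pairs. Promoter sequences are from RefSeq (GRCm38.p6).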

Additional observations from a re-analysis of the deposited data

How the results depend on the processing

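Of 360 results of a member in a comparison of hearts under an alternative, 310 were rated the same and 8 changed sign. Another 41 were no longer past the threshold and 1 came past it, all against Sham, where member values are a description. The 310 include all 60 Model against Sham results, which have no p and so could lose no call. Those kept their direction and moved by less than their residual SD. The rest of the 310 kept their direction and their side of the threshold. Of 312 results under an alternative for the named partner genes, 281 kept their call, 31 lost it and none changed sign.

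The sign changes were in uncalled differences. Leaving out each library gave LQ-40 against Model differences of -0.45 to 0.16 for Thbs2 and -0.73 to 0.010 for Thbs3, positive only without LQ-40 1. LQ-40 against SQ-3 ran from -1.85 to 0.40 for Comp, -1.49 to 0.31 for Thbs1 and -1.40 to 0.023 for Thbs4, positive only without LQ-40 1. It ran from -0.084 (without LQ-40 3) to 0.53 for Thbs2, and from -0.32 to 0.42 for Thbs3, which was positive without LQ-40 1 and without SQ-3 2 (0.087). LQ-40 against Model had 87 genes called, 48 with no filter and 14 in a fit of the compared groups alone. LQ-40 against SQ-3 had 0 genes called and 2 with no filter. LQ-40 against Sham had 2049 genes called, 774 with no filter and 230 in a fit of the compared groups alone. In that fit 0 members were past the threshold in place of 4. SQ-3 against Sham had 868 genes called and 262 with no filter, where 2 members were past the threshold in place of 5. Member counts against Sham are descriptions, from which nothing is read. In the rat, 1001 genes were past 2-fold and 1522 with a pseudocount of 0.1. The no-filter fit tested more genes and the fit of compared groups held fewer libraries; which of them moved single calls was not tested.

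Leaving out each library in turn gave 3288 to 4498 genes called for Model against Sham (5053 with all; 3288 without Model 1), 31 to 155 for LQ-40 against Model, 12 to 26 for SQ-3 against Model (45 with all) and 0 to 1 for LQ-40 against SQ-3. It gave 408 to 4372 genes called for LQ-40 against Sham and 227 to 444 for SQ-3 against Sham. As a description, 0 to 5 members were past the threshold for LQ-40 against Sham and 1 to 3 for SQ-3 against Sham. With the replicate number as a block, SQ-3 against Model had 29 genes called, and Thbs2 in SQ-3 against Sham was no longer past the threshold. Same-numbered libraries correlated best with their own number in 1 of 12 cases, so the numbers were not taken as pairs. Depth limited the rat Thbs4, with 1 read in 3D and 0 in 2D, under the floor of 3 reads.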
